A study of Mus musculus with 23 samples.

Results

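The genes described here are the receptor that BLZ945 blocks, its ligands, and the related receptors of myeloid growth factors. They are the 10 rows of the count table, of 33280 genes in all, that carry the symbols Csf1r, Csf1, Il34, Csf2ra, Csf2rb, Csf2rb2, Csf3r, Tyrobp, Trem2 and Dap. The rule that selects the rows uses the symbols and no measured value, but the list was chosen with earlier results of these data known. RNA was sequenced from microglia (MG) and from sdCAMs (subdural CAMs, the macrophages of the CNS that lie around vessels and in the leptomeninges and here were gated as CD206-positive), sorted 1 day after stroke from coronal brain slices freed of choroid plexus. All mice were Ccr2creERT2/+ R26tdT/tdT animals, in which tamoxifen makes cells that express Ccr2 at that time, and their progeny, carry the red protein tdTomato (tdT). They received BLZ945, an inhibitor of the kinase CSF-1R, at 200 mg/kg by gavage for 7 days, or vehicle (CTL). Tamoxifen at 2 mg per day followed on the last gavage day and on the days +2 and +4 after it, and stroke was set by thrombin in the middle cerebral artery 8 weeks after the gavage. Every group thus shares the reporter genotype, tamoxifen and the stroke, and no unoperated group was analysed here.

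The 23 libraries fall into 5 groups. MG of CTL mice and MG of BLZ945 mice gave 5 libraries each, tdT-negative (tdT-) sdCAMs of CTL and of BLZ945 mice gave 5 each, and tdT+ sdCAMs of BLZ945 mice gave 3. Libraries are named here by group and by the labels M1, M2, F1, F2 and F3, where the letter is the sex. Within a treatment, the same label marks the same animal or pool in all its sorted populations. CTL libraries came from 1 mouse each, BLZ945 libraries from pools of 2 mice except F2, which came from 1, and 1 animal number stands in the names of both the F2 and the M1 BLZ945 libraries. The tdT mark needs recombination during the tamoxifen days, so a cell of the same descent that did not recombine was sorted as tdT-. In such sorted bulk RNA, fewer cells that express a gene and less of its RNA per cell cannot be told apart.

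The libraries held 9433960 to 13276081 counts, and 3 counts corresponded to 0.226 to 0.318 CPM, counts scaled to a common library total. The sort was visible in every library. The summed level of MG markers was 21006 to 32565 CPM in MG and 1539 to 2933 CPM in sdCAMs, and that of sdCAM markers was 14.4 to 52.8 CPM in MG and 13254 to 19326 CPM in sdCAMs. Both gates excluded cells with Ly6C, Ly6G or CD11c on their surface. Mrc1, which encodes the CD206 of the gate, averaged 13.5 and 5.06 CPM in MG of CTL and BLZ945 mice and 2683 to 3137 CPM in the sdCAM groups.

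CSF-1R is the receptor tyrosine kinase on which MG and most tissue macrophages depend for survival. It has a pair of ligands, CSF-1 and IL-34, of which IL-34 is made in the brain chiefly by neurons. GM-CSF and G-CSF act through other receptors. The GM-CSF receptor joins an alpha chain (Csf2ra) to the common beta chain (Csf2rb), which also serves IL-3 and IL-5, while mice carry in Csf2rb2 a further beta chain dedicated to IL-3. DAP12, encoded by Tyrobp, is the signalling adaptor of TREM2, a lipid-sensing receptor of MG, and is also engaged downstream of CSF-1R. The gene Dap encodes death-associated protein, a different protein despite its similar name.

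The beta chain genes are near copies, which bears on every value given for them. Their coding sequences agree at 95.2% of 2631 aligned positions, and 18.4% of all 50-base windows of the Csf2rb transcript occur unchanged in Csf2rb2, against 19% in the other direction. How reads that fit both were counted decides how they split, so both genes are reported as uncertain. Their first 90 coding bases, from the GENCODE M21 transcripts, are shown to make the likeness visible, with the 3 positions that differ in capitals.
Csf2rb: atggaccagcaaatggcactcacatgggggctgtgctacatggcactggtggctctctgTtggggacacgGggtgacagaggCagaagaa
Csf2rb2: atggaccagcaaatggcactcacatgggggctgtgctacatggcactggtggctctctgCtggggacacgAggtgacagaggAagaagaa

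Csf3r and Trem2 were receptors whose MG libraries all lay above the sdCAM libraries, and Csf2ra was a receptor that differed the other way, so their promoters are shown. Each spans 250 bases before to 50 after the start of the gene, taken from RefSeq with build GRCm38.p6, and capitals mark matches to GAGGAA on either strand, the core bound by PU.1, the myeloid transcription factor encoded by Spi1.
Csf3r, chr4:126024409-126024708, plus strand: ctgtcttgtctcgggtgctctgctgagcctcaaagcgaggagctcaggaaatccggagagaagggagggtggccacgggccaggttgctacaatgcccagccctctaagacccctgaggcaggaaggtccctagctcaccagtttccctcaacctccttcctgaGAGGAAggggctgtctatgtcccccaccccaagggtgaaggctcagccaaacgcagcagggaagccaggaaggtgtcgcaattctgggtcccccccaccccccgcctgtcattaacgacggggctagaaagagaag
Trem2, chr17:48346151-48346450, plus strand: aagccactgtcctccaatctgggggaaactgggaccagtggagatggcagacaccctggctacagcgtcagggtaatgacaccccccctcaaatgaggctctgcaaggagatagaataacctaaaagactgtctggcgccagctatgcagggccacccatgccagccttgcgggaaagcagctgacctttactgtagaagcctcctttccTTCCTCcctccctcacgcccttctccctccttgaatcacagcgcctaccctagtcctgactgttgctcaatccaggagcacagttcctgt
Csf2ra, chr19:61228369-61228668, minus strand: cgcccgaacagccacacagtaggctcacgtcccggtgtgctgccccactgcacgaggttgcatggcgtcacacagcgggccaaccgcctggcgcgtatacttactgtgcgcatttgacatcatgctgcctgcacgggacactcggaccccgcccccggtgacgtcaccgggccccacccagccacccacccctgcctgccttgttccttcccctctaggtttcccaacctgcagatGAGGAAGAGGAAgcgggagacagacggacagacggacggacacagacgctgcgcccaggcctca
The motif occurred once in the Csf3r and Trem2 windows and as 2 adjacent copies in the Csf2ra window. RefSeq windows were found for 6 members, and 4 of them held the motif, which also occurred in 28.3% of all 32851 promoters of that length. A match is a description of letters and no evidence of binding. Spi1 itself stood at 493 ± 35.7 and 439 ± 32.9 CPM in MG of CTL and BLZ945 mice, 450 ± 43.2 and 475 ± 55.3 CPM in tdT- cells of CTL and BLZ945 mice, and 454 ± 76.2 CPM in tdT+ cells (SD), and was not called in any comparison.

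Csf1r, the target of the drug, stood below Tyrobp and above the other members in every group by CPM per kilobase of annotated exon, an order that depends on the exon annotation. Its level was 3361 to 4754 CPM in MG CTL, with M2 the lowest and the other 4 libraries between 4385 and 4754 CPM. MG BLZ945 libraries held 4294 CPM in F1, 4556 in F2, 4148 in F3, 5193 in M1 and 4741 in M2. The tdT- CTL libraries held 3614 CPM in M1, 3792 in F1, 3897 in F2, 2963 in M2 and 3198 in F3. In tdT- BLZ945 the values were 2861 in F1, 2738 in F2, 3056 in F3, 4056 in M1 and 3161 in M2, and in tdT+ they were 2519 in F2, 2493 in F3 and 3353 in M2. At 8 weeks after the gavage ended, transcripts of the drug's target were thus abundant in all 23 libraries, those of CTL as well as of BLZ945 mice.

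Group means of Csf1r ran from 4586 ± 409 CPM in MG BLZ945 (SD, n = 5) through 4319 ± 558 in MG CTL (n = 5), 3493 ± 399 in tdT- CTL (n = 5) and 3174 ± 520 in tdT- BLZ945 (n = 5) to 2788 ± 489 in tdT+ (n = 3). Each neighbouring pair in this order overlapped. Differences were tested with edgeR's quasi-likelihood test, with Benjamini-Hochberg adjustment across every gene in the fit, and called at an adjusted p under 0.05. Csf1r was lower in sdCAMs than in MG of BLZ945 mice, by log2 fold changes of -0.52 (SE 0.13, adjusted p = 0.00295) in tdT- and -0.71 (SE 0.16, adjusted p = 0.0062) in tdT+ cells. In CTL mice the same contrast gave -0.31 (SE 0.13, adjusted p = 0.0747) and became a call with the animal as a block (-0.31, SE 0.08, adjusted p = 0.0156). Within animals, the tdT- value lay below the MG value in 5 of 5 CTL mice, by 0.18 to 0.46 on the log2 scale. Without MG CTL M2, the lowest MG library, the unblocked contrast was -0.39 with an adjusted p of 0.0211. It was also called in the model of the 20 MG and tdT- libraries when tdT- BLZ945 F2 (0.0427) or M1 (0.0463) was left out, and over all 27 alternatives its adjusted p lay between 0.0156 and 0.166. Of the exon bases of Csf1r, 15.1% lie opposite Hmgxb3, and since the library kit does not mark strand, reads there could belong to either gene.

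**Figure D1:**
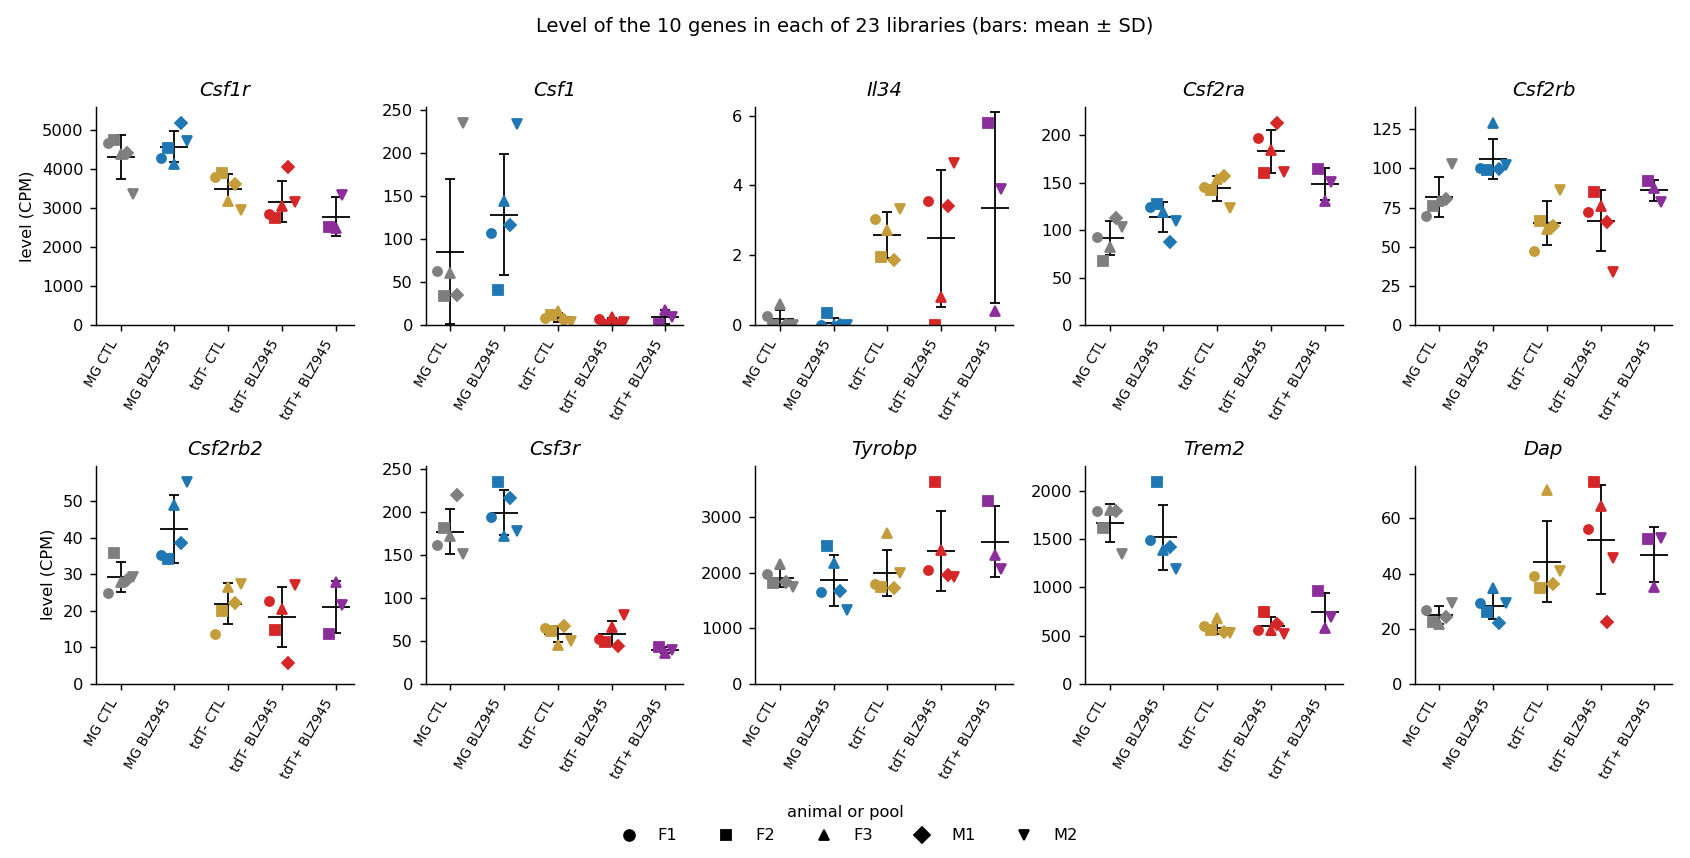
CPM of each of the 10 genes (one panel per gene, linear axis) in each library, by group along the horizontal axis. Marker shape gives the animal or pool label and the black bar the mean ± SD. Csf1r stands at 2493 to 5193 CPM in every library, while Csf3r and Trem2 libraries of MG lie wholly above those of sdCAMs.

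Csf1, the ligand of CSF-1R made by many cell types, was at a higher level in MG than in sdCAMs and varied widely among MG libraries. MG CTL held 35.0 CPM in M1, 63.0 in F1, 34.1 in F2, 235 in M2 and 60.2 in F3, and MG BLZ945 held 107 in F1, 41.2 in F2, 144 in F3, 116 in M1 and 234 in M2. In tdT- CTL the values were 5.67, 8.00, 12.1, 3.16 and 16.0 CPM in M1, F1, F2, M2 and F3. Among tdT- BLZ945 libraries, F2 and M1 had no count and the others reached at most 9.85 CPM, and tdT+ libraries held 0.965, 17.1 and 9.89 CPM in F2, F3 and M2. The highest sdCAM library therefore lay below the lowest MG library. Csf1 was lower in tdT- than in MG cells of CTL mice, by -3.26 (SE 0.78, adjusted p = 0.0033), and of BLZ945 mice, by -4.93 (SE 0.86, adjusted p = 0.000123). For tdT+ against MG the change was -3.77 (SE 1.18, adjusted p = 0.0366), a call that held in 6 of 13 fits that left out a library, with adjusted p from 0.0101 to 0.111 over all alternatives. It was lost without MG BLZ945 F1 (0.0573), F3 (0.0647), M1 (0.0608) or M2 (0.0872) and without tdT+ F2 (0.111), F3 (0.0557) or M2 (0.095).

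Il34 had the opposite pattern at a far lower level. MG libraries held 0 to 7 counts, with 3 counts in MG CTL F1, 7 in MG CTL F3, 4 in MG BLZ945 F2 and 0 in the other 7, so that MG levels lay at or near the limit that 3 counts set. The tdT- CTL libraries each held 24 to 41 counts, or 1.86 CPM in M1, 3.03 in F1, 1.94 in F2, 3.33 in M2 and 2.71 in F3. In tdT- BLZ945, F1, M1 and M2 held 3.54, 3.42 and 4.63 CPM, F3 held 0.813 and F2 had no count. The tdT+ libraries ranged from 0.396 CPM in F3 to 3.90 in M2 and 5.79 in F2. Il34 was higher in tdT- than in MG cells, by 3.81 (SE 1.28, adjusted p = 0.0316) in CTL and 4.97 (SE 1.38, adjusted p = 0.00835) in BLZ945 mice, and in tdT+ than in MG cells by 5.4 (SE 1.62, adjusted p = 0.0302). These fold changes rest on MG counts near 0 and their size is not well determined.

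Of the Il34 calls, the one in CTL mice held in 13 of 20 fits without a library, with adjusted p from 0.009 to 0.0786 over all alternatives. It was lost without MG CTL M1 (0.0786), F1 (0.0592), F2 (0.0776) or M2 (0.0771), without tdT- CTL F1 (0.0549), M2 (0.0552) or F3 (0.0502), and with no filter on low counts (0.0589). The tdT+ call was lost with the animal as a block (5.50, adjusted p = 0.0677), without MG BLZ945 F1 (0.0718), F3 (0.0676), M1 (0.0698) or M2 (0.0735), and without tdT+ F2 (0.0927) or M2 (0.0592). Its adjusted p ranged from 0.0052 to 0.0927. All 7 neuron markers had counts in every group, and their summed level was 5.43 to 13.8 CPM in MG and 55.3 to 133 CPM in sdCAM libraries, with Snap25, a synaptic vesicle gene, at 5.86 and 7.44 CPM in MG and 37.0, 39.0 and 48.1 CPM in the sdCAM groups. In tdT- CTL, M1, F2, M2, F1 and F3 held 55.3, 62.0, 71.1, 72.9 and 113 CPM of neuron markers. Il34 stood there at 1.86, 1.94, 3.33, 3.03 and 2.71 CPM in turn. In tdT- BLZ945, F1, M2, M1, F3 and F2 held 55.3, 59.8, 60.5, 96.4 and 121 CPM of neuron markers. Il34 stood there at 3.54, 4.63, 3.42, 0.813 and 0 CPM in turn. In tdT+ cells, M2, F2 and F3 held 63.7, 76.5 and 133 CPM of neuron markers and 3.90, 5.79 and 0.396 CPM of Il34. Fibroblasts are another cell type whose markers differed between the populations. Dcn, a matrix gene of fibroblasts, averaged 0.119 and 0.0372 CPM in MG of CTL and BLZ945 mice and 17, 21.8 and 15.2 CPM in the tdT- CTL, tdT- BLZ945 and tdT+ groups. The whole list of 8 endothelial and fibroblast markers, all with counts in every group, summed to 5.01 to 22.9 CPM in MG and 19.4 to 75.2 CPM in sdCAM libraries. Of these, Pecam1 went the other way, at 15.4 and 5.08 CPM in MG of CTL and BLZ945 mice. It averaged 2.45, 1.34 and 2.02 CPM in the tdT- CTL, tdT- BLZ945 and tdT+ groups. The part of either cell type in the Il34 result was not tested.

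The receptor for GM-CSF had its alpha chain, Csf2ra, at a higher level in tdT- sdCAMs than in MG. MG CTL held 113 CPM in M1, 92.7 in F1, 67.3 in F2, 103 in M2 and 82.2 in F3, and tdT- CTL held 157, 145, 142, 123 and 154 CPM in the same animals, with no overlap. MG BLZ945 held 124, 128, 119, 87.6 and 110 CPM in F1, F2, F3, M1 and M2, and tdT- BLZ945 197, 160, 184, 213 and 161 CPM, again with no overlap. The tdT+ libraries held 164 CPM in F2, 131 in F3 and 151 in M2. Csf2ra was higher in tdT- than in MG cells by 0.65 (SE 0.14, adjusted p = 0.00125) in CTL and 0.70 (SE 0.14, adjusted p = 0.000552) in BLZ945 mice. For tdT+ against MG the value was 0.39 (SE 0.16, adjusted p = 0.104), which DESeq2 called at 0.42 with an adjusted p of 0.0379, and the adjusted p over all alternatives was 0.0379 to 0.304. Markers of dendritic cells, which also carry this receptor, summed to 14.1 to 24.4 CPM in MG, 223 to 782 in tdT- cells of CTL and 31.1 to 209 of BLZ945 mice, and 34.7 to 88.3 in tdT+ cells. Nearly all of the sum in tdT- CTL was Cd209a, with a mean of 443 CPM against 0.25 CPM in MG CTL. The other markers of the list were mixed. Zbtb46 averaged 3.4 and 2.91 CPM in MG of CTL and BLZ945 mice and 21.1, 15.7 and 14.8 CPM in the tdT- CTL, tdT- BLZ945 and tdT+ groups. Flt3 averaged 1.84 and 1.07 CPM in MG and 1.41, 5.16 and 3.88 CPM in those groups, while Itgax averaged 11.9 and 15.2 CPM in MG and 0, 1.99 and 1.38 CPM. Xcr1 was at 0 in the sdCAM groups. The part of such cells in the Csf2ra result was not tested.

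Csf2rb, the common beta chain, averaged 81.6 ± 12.5 CPM in MG CTL, 106 ± 12.8 in MG BLZ945, 65.1 ± 14 in tdT- cells of CTL and 66.6 ± 19.5 of BLZ945 mice, and 86.0 ± 6.67 in tdT+ cells. Csf2rb2 averaged 29.2 ± 4.01, 42.4 ± 9.28, 22.0 ± 5.52, 18.2 ± 8.26 and 21.1 ± 7.12 CPM in the same order (SD). In BLZ945 mice, both were lower in tdT- than in MG cells, Csf2rb by -0.66 (SE 0.19, adjusted p = 0.0121) and Csf2rb2 by -1.21 (SE 0.30, adjusted p = 0.00381). In CTL mice neither was called, at -0.33 (SE 0.19, adjusted p = 0.244) and -0.42 (SE 0.30, adjusted p = 0.354), although both were lower in the tdT- library of 5 of 5 animals. The difference between the treatments in these contrasts was itself not called, at -0.33 (SE 0.27, adjusted p = 0.79) for Csf2rb and -0.79 (SE 0.42, adjusted p = 0.624) for Csf2rb2. Libraries of MG BLZ945 held 98.9 to 129 CPM of Csf2rb and 34.1 to 55.3 CPM of Csf2rb2. Against MG the tdT+ values were -0.29 (SE 0.23, adjusted p = 0.441) for Csf2rb and -1.0 (SE 0.43, adjusted p = 0.126) for Csf2rb2. The latter became a call in the model of all 23 libraries (-1.01, adjusted p = 0.0431) and without tdT- BLZ945 M1 (0.0437), with adjusted p from 0.0431 to 0.348 over all alternatives.

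Csf3r, the receptor of G-CSF and best known from neutrophils, was an MG gene in these libraries. MG CTL held 220 CPM in M1, 161 in F1, 181 in F2, 151 in M2 and 172 in F3, against 67.7, 64.4, 61.9, 49.9 and 45.5 CPM in the tdT- cells of the same animals. MG BLZ945 held 194, 235, 172, 216 and 178 CPM in F1, F2, F3, M1 and M2, against 52.0, 49, 66.2, 43.9 and 79.5 CPM in tdT- BLZ945. The 3 tdT+ libraries were the lowest of all, at 43.1, 36.2 and 39.9 CPM in F2, F3 and M2, below all tdT- CTL and tdT- BLZ945 libraries. The lowest MG library lay above the highest sdCAM library. Csf3r was lower in tdT- than in MG cells by -1.62 (SE 0.17, adjusted p = 1.31e-07) in CTL mice and -1.77 (SE 0.17, adjusted p = 3.45e-08) in BLZ945 mice, and in tdT+ than in MG cells by -2.32 (SE 0.22, adjusted p = 2.39e-06). Neutrophil markers summed to at most 49.3 CPM in MG and 74.1 CPM in sdCAMs. Of these, Ly6g was at 0 in all MG libraries and Cxcr2 averaged 0.0522 CPM in MG CTL and 0 elsewhere, whereas S100a8 averaged 3.61 and 4.57 CPM in MG of CTL and BLZ945 mice and 0.132 to 0.665 CPM in the sdCAM groups, and Ngp 1.19 and 4.55 CPM against 0 to 0.193 CPM. Retnlg went the other way, at 0 and 0.0167 CPM in MG of CTL and BLZ945 mice and at 0, 14.8 and 5.86 CPM in the tdT- CTL, tdT- BLZ945 and tdT+ groups. MG CTL F1 and MG BLZ945 M2, in which the whole list summed to 0, held 161 and 178 CPM of Csf3r, above every sdCAM library. MG BLZ945 M1, with the highest sum of the MG libraries at 49.3 CPM, held 216 CPM. The part of neutrophils in the Csf3r result was not tested.

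Trem2 divided the populations in the same way. MG CTL held 1789 CPM in M1, 1793 in F1, 1615 in F2, 1342 in M2 and 1796 in F3, against 533, 602, 561, 526 and 681 CPM in the tdT- cells of the same animals. MG BLZ945 held 1487, 2092, 1390, 1417 and 1191 CPM in F1, F2, F3, M1 and M2, against 561, 742, 557, 623 and 514 CPM in tdT- BLZ945. In tdT+ cells the values were 961 CPM in F2, 573 CPM in F3 and 690 CPM in M2, so that no sdCAM library reached the lowest MG library. The change of tdT- against MG was -1.53 (SE 0.14, adjusted p = 2.97e-08) in CTL mice and -1.33 (SE 0.14, adjusted p = 2.32e-07) in BLZ945 mice, and that of tdT+ against MG was -1.02 (SE 0.21, adjusted p = 0.00264). The calls of Csf3r and Trem2 held in every fit that left out a library. Both genes moved with the summed MG markers given above, and the part of MG in the sdCAM gate, or of the reverse, in these values was not tested.

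Tyrobp, the adaptor that TREM2 needs, did not share that split. MG CTL held 1830 CPM in M1, 1967 in F1, 1808 in F2, 1744 in M2 and 2146 in F3, and tdT- CTL held 1721, 1800, 1738, 1996 and 2720 CPM in the same animals. MG BLZ945 held 1649 CPM in F1, 2478 in F2, 2171 in F3, 1663 in M1 and 1332 in M2, and tdT- BLZ945 held 2044, 3634, 2401, 1951 and 1924 CPM. In tdT+ cells F2 held 3280, F3 2325 and M2 2070 CPM. F2 was the highest BLZ945 library in all 3 populations and F3 the highest CTL library in both, and every pair of groups overlapped. Tyrobp was not called between tdT- and MG cells in CTL mice (0.07, SE 0.18, adjusted p = 0.855), between tdT- and MG cells in BLZ945 mice (0.37, SE 0.18, adjusted p = 0.13) or between tdT+ and MG cells (0.47, SE 0.24, adjusted p = 0.198). With the animal or pool as a block, the contrast of tdT- and MG cells in BLZ945 mice became a call (0.36, SE 0.10, adjusted p = 0.0139), and the tdT- library was the higher in 5 of 5 animals or pools.

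**Figure D2:**
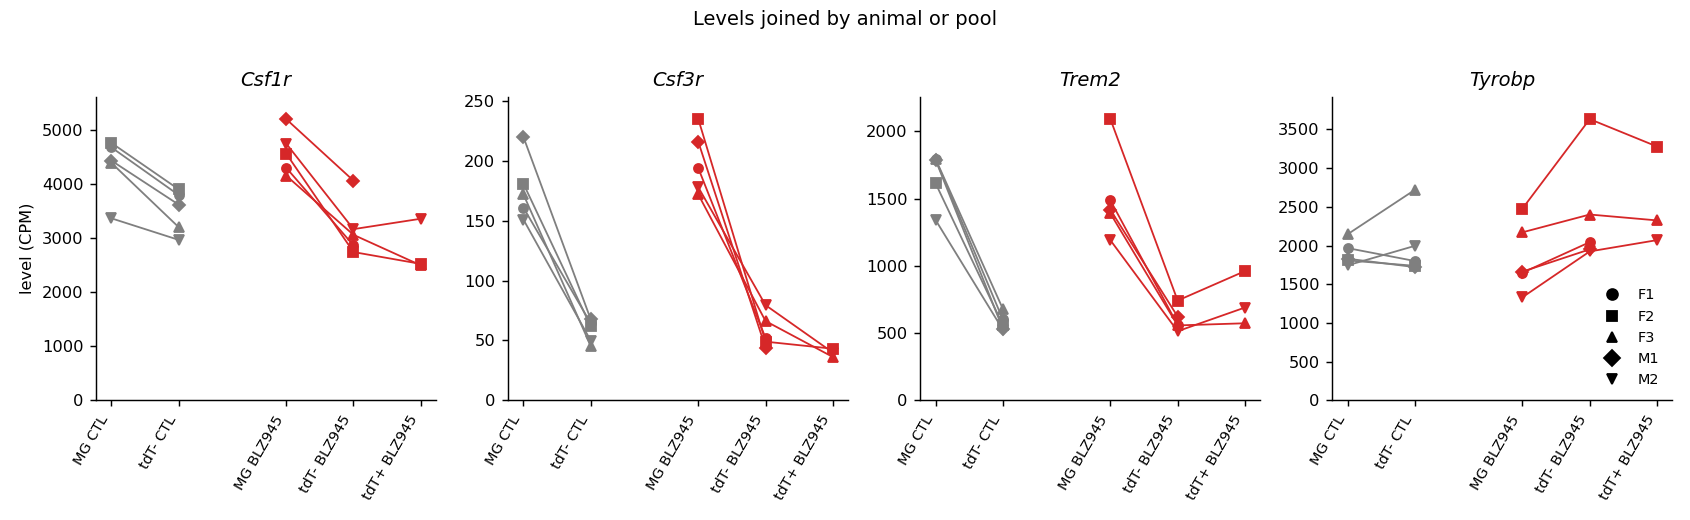
CPM (linear axes) of Csf1r, Csf3r, Trem2 and Tyrobp, with a line joining the sorted populations of each animal or pool, CTL and BLZ945 apart. Lines fall from MG to sdCAMs for Csf1r, Csf3r and Trem2 in every animal or pool. For Tyrobp they rise from MG to tdT- cells in all 5 animals or pools of BLZ945 mice but in 2 of 5 CTL mice.

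Dap, which encodes a negative regulator of autophagy, was higher in tdT- sdCAMs than in MG. Libraries of MG CTL held 21.6 to 29.3 CPM and those of tdT- CTL 34.6 to 70.2 CPM, with F3 at 70.2 and the other 4 at 41.1 or below. MG BLZ945 held 21.9 to 34.6 CPM. The tdT- BLZ945 libraries ranged from 22.4 in M1 to 73.3 in F2, and tdT+ held 52.4, 35.2 and 53.0 CPM in F2, F3 and M2. The contrast of tdT- with MG was 0.82 (SE 0.26, adjusted p = 0.0209) in CTL and 0.90 (SE 0.26, adjusted p = 0.00974) in BLZ945 mice. Without tdT- CTL F3 the former was 0.57 (adjusted p = 0.108), without MG CTL F3 its adjusted p was 0.0535, and with only pools of 2 mice the latter was 0.72 (adjusted p = 0.0583). For tdT+ against MG it was 0.74 (SE 0.32, adjusted p = 0.122) and became a call without tdT- BLZ945 M1 (0.0381). The adjusted p over all alternatives was 0.00431 to 0.108, 0.000505 to 0.0583 and 0.0381 to 0.314 for these contrasts in turn.

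Counted over the list, 6 of 10 members were called between tdT- and MG cells of CTL mice, where 25.6% of all genes tested were. Il34, Csf2ra and Dap were higher (15.3% of all genes) and Csf1, Csf3r and Trem2 lower (10.3%). In BLZ945 mice 9 of 10 were called, against 32.4% of all genes, with the same 3 higher (18.3%) and all others but Tyrobp lower (14.1%). For tdT+ against MG, 5 of 10 were called, against 18.9%, with Il34 higher (11.8%) and Csf1r, Csf1, Csf3r and Trem2 lower (7.05%). The median log2 fold change of the members was -0.32, -0.59 and -0.50 in these comparisons, and that of all genes -0.01, -0.02 and -0.01. Both contrasts in BLZ945 mice share the MG libraries. When genes under 10 counts in any library were removed, which drops Csf1 and Il34, the tdT+ count was 3, and it ranged from 3 to 7 over the fits without a library.

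**Figure D3:**
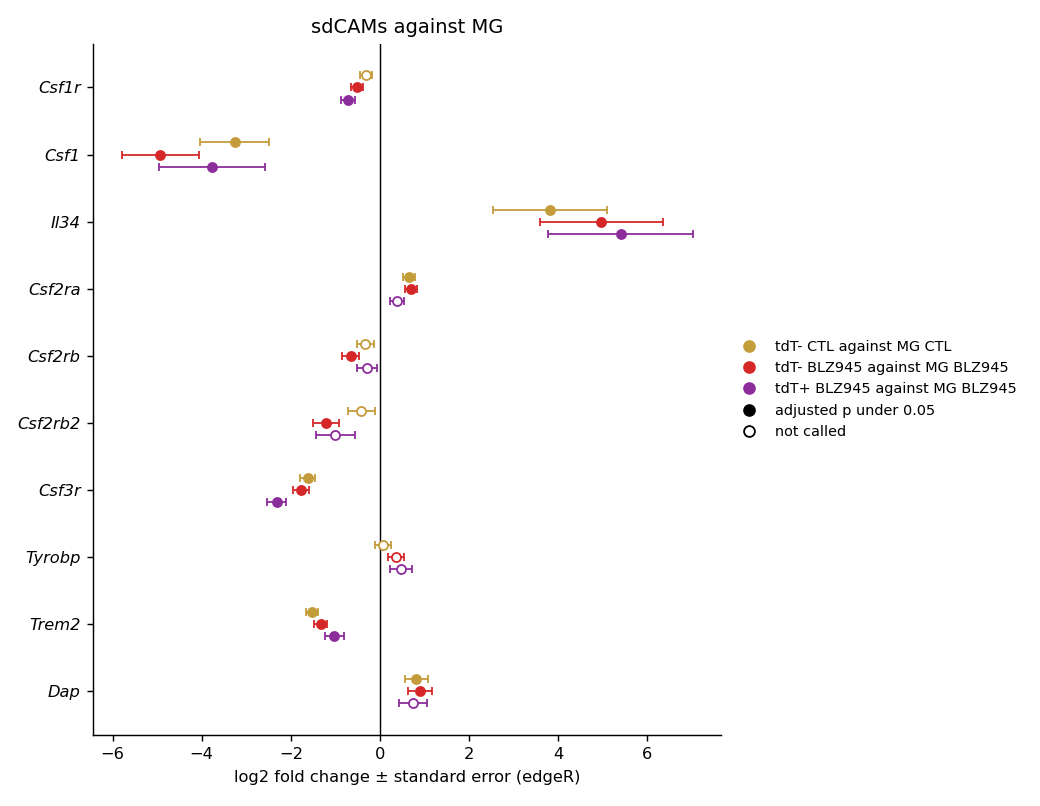
Log2 fold change (edgeR, horizontal axis) ± SE of each of the 10 genes for tdT- against MG in CTL mice, tdT- against MG in BLZ945 mice and tdT+ against MG in BLZ945 mice. Filled points were called at an adjusted p under 0.05, of which there are 6, 9 and 5. Csf3r and Trem2 lie left of 0 in all 3 contrasts, and Tyrobp has open points only.

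Expressed per kilobase of annotated exon, Tyrobp stood far above the others in every group, at 2847 CPM per kb in MG CTL and 3835 in tdT+. Csf1r followed, at 748 CPM per kb in MG CTL, 794 in MG BLZ945, 605 in tdT- cells of CTL and 550 of BLZ945 mice, and 483 in tdT+ cells. Trem2 stood at 337 and 306 CPM per kb in MG of CTL and BLZ945 mice and 117 to 150 in the sdCAM groups. In MG CTL the next in order were Csf3r at 49, Csf2ra at 31.9, Csf1 at 16.2, Dap at 13.0, Csf2rb at 11.2 and Csf2rb2 at 6.17 CPM per kb. The sdCAMs ordered their receptors otherwise: in tdT- CTL, Csf2ra stood at 50.2 and Csf3r at 16.0 CPM per kb. The ligands stood lowest there, with Csf1 at 1.70 and Il34 at 1.31 CPM per kb. Exon lengths were those of GENCODE M21 and counted every annotated exon base of a gene, which can exceed the length of its transcript. For Csf2rb the length was 7277 bases against a transcript of 4900. The order of the genes per kilobase thus depends on this choice of length and is uncertain.

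The next comparisons asked whether these genes differed, 8 weeks on, in cells of mice that had received BLZ945. In MG, 0 of 9 members tested were called by edgeR, where 0.408% of all genes were. DESeq2 also called 0, and 2 members had an unadjusted p under 0.05. Csf1r changed by 0.07 (SE 0.11, approximate 95% interval -0.14 to 0.28, adjusted p = 0.834), Tyrobp by -0.05 (SE 0.14, interval -0.33 to 0.23) and Trem2 by -0.15 (SE 0.14, interval -0.42 to 0.11). The members with an unadjusted p under 0.05 were the beta chains, Csf2rb with 0.36 (SE 0.12, interval 0.12 to 0.60, adjusted p = 0.225) and Csf2rb2 with 0.52 (SE 0.16, interval 0.21 to 0.83, adjusted p = 0.172). Csf1 changed by 0.57 (SE 0.48, interval -0.38 to 1.52), and the value ran from 0.23 without MG BLZ945 M2 to 1.41 without MG CTL M2, the highest Csf1 library of each group. Il34 was too low in MG to be tested.

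In tdT- sdCAMs the contrast of BLZ945 with CTL called 0 of 10 members and 0.0% of 13076 genes by edgeR. Of the genes, 697 had an unadjusted p under 0.05 and DESeq2 called 63, of the members 1 and 0. That member was Csf2ra, whose tdT- BLZ945 libraries at 160 to 213 CPM all lay above the tdT- CTL libraries at 123 to 157 CPM (0.36, SE 0.14, interval 0.09 to 0.63, adjusted p = 0.769). The change was -0.12 (SE 0.14, interval -0.40 to 0.16) for Csf1r, 0.27 (SE 0.19, interval -0.10 to 0.65) for Tyrobp, 0.06 (SE 0.15, interval -0.23 to 0.35) for Trem2 and 0.02 (SE 0.21, interval -0.39 to 0.44) for Csf3r. The library tdT- BLZ945 F1 had the highest sums of monocyte and neutrophil markers of its group, the latter at 74.1 CPM, and without it 9 members were still called between tdT- and MG cells of BLZ945 mice.

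Whether the response to treatment differed between tdT- and MG cells was tested as an interaction. By edgeR it called 0 of 10 members, where 0.0394% of all genes were called, and 0 members had an unadjusted p under 0.05 or a DESeq2 call. The estimate was -0.21 (SE 0.18, adjusted p = 0.794) for Csf1r, -1.68 (SE 1.05, adjusted p = 0.702) for Csf1, 0.31 (SE 0.26, adjusted p = 0.794) for Tyrobp and 0.20 (SE 0.20, adjusted p = 0.83) for Trem2.

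The remaining comparisons concern origin, setting tdT+ sdCAMs, descended from cells that expressed Ccr2 around the end of treatment, against tdT- sdCAMs. Against the tdT- cells of the same BLZ945 animals or pools, edgeR called 0 of 10 members and 0.206% of all genes. DESeq2 called 0 members, and 1 had an unadjusted p under 0.05. This was Csf3r, lower in 3 of 3 tdT+ libraries than in the tdT- library of the same animal or pool, with -0.57 (SE 0.25, interval -1.06 to -0.08, adjusted p = 0.681). Csf1r gave -0.20 (SE 0.17, interval -0.53 to 0.12), Tyrobp 0.08 (SE 0.22, interval -0.35 to 0.51) and Trem2 0.29 (SE 0.17, interval -0.04 to 0.62), and Trem2 was the higher in 3 of 3 tdT+ libraries. So were Csf1, at 1.16 (SE 1.26), with 0.74 to 1.34 within animals or pools on the log2(CPM + 1) scale, and Csf2rb, with 0.12 to 1.19 within animals or pools. Against tdT- CTL, edgeR again called 0 of 10 members, with 0.283% of all genes called, 1 member at an unadjusted p under 0.05 and 0 by DESeq2. Csf3r gave -0.55 (SE 0.25, adjusted p = 0.639), Csf1r -0.33 (SE 0.17, adjusted p = 0.705), Tyrobp 0.35 (SE 0.22, adjusted p = 0.809) and Trem2 0.35 (SE 0.17, adjusted p = 0.687). The tdT+ group is shared by both contrasts, and with 3 libraries its intervals against tdT- CTL were wide for the ligands, at -2.45 to 2.58 for Csf1 and -1.89 to 2.64 for Il34.

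**Figure D4:**
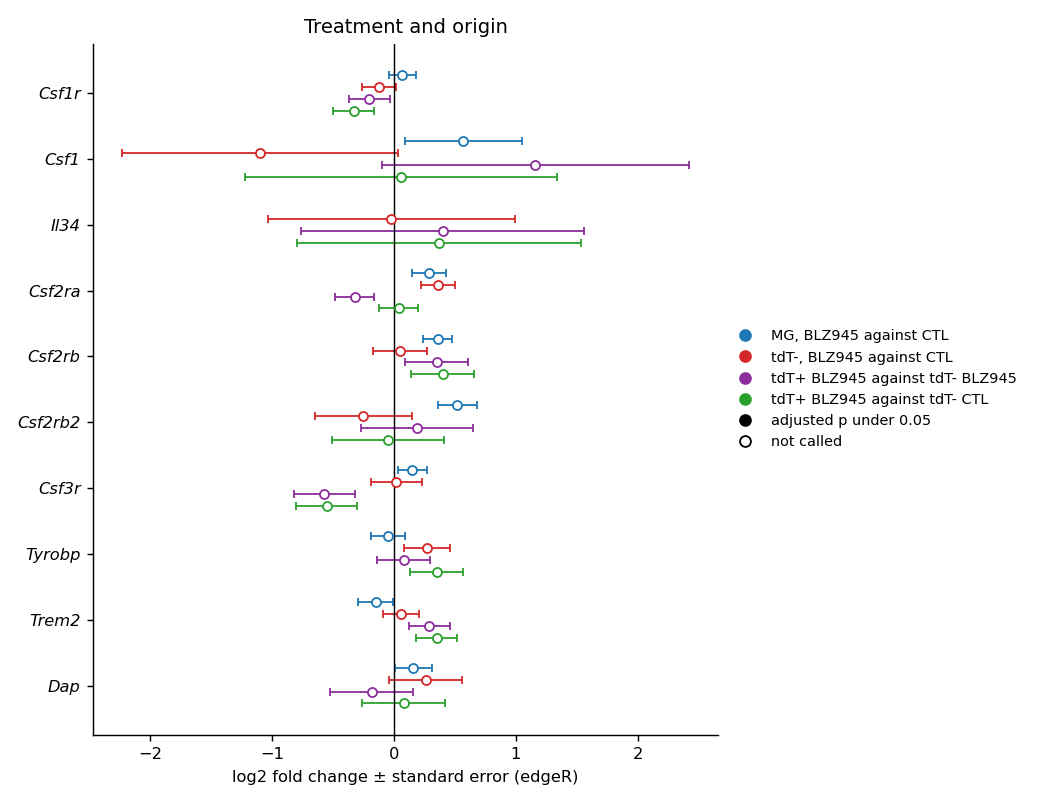
Log2 fold change (edgeR, horizontal axis) ± SE of the 10 genes for BLZ945 against CTL in MG and in tdT- sdCAMs and for tdT+ BLZ945 against tdT- BLZ945 and tdT- CTL. All points are open since 0 members were called, and the bars of Csf1 and Il34 are the widest in the sdCAM contrasts.

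Other genes of these pathways were counted in lists. Of 26 genes of CSF-1R signalling, 2 were higher and 7 lower in tdT- than in MG cells of CTL mice, with a median log2 fold change of -0.16. This is 34.6% of the list against 25.6% of all genes. In BLZ945 mice 3 were higher and 7 lower (38.5% against 32.4%), and in tdT+ against MG 1 was higher and 7 lower (30.8% against 18.9%), a count that ran from 5 to 11 over the alternatives. Dok2, an adaptor that dampens receptor tyrosine kinase signals, rose from 11.6 ± 5.36 CPM in MG CTL to 105 ± 23.9 in tdT- CTL (3.17, SE 0.30, adjusted p = 3.16e-08). Myc, a growth-related transcription factor, was lower at 64.9 ± 8.46 against 191 ± 54.1 CPM (-1.56, SE 0.24, adjusted p = 2.42e-05). The Src family kinase Fgr was lower at 0.149 against 8.57 CPM (-5.74, SE 1.28, adjusted p = 0.00174) and had no count in the 3 tdT+ libraries, but tdT- BLZ945 libraries ranged from 0 to 25 CPM with a mean of 7.02. Inpp5d, the phosphatase SHIP1, averaged 143 ± 44.8 CPM in tdT- BLZ945 against 422 ± 23.7 in MG BLZ945 (-1.55, SE 0.19, adjusted p = 1.11e-06), and Src 1.72 against 16.3 CPM (-3.23, SE 0.58, adjusted p = 0.00018).

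The next list held 17 genes of DAP12-coupled receptors and TREM2 signalling. In tdT- against MG cells of CTL mice 1 was higher and 8 lower (median -0.91), in BLZ945 mice 2 were higher and 9 lower (median -0.79), and in tdT+ against MG 4 were higher and 6 lower (median -1.05). These calls are 52.9%, 64.7% and 58.8% of the list, against 25.6%, 32.4% and 18.9% of all genes, and the tdT+ count ran from 7 to 13 over the alternatives. Apoe, a lipid carrier and TREM2 ligand, was the call of the list in the higher direction in CTL mice, at 36612 ± 4559 CPM in tdT- CTL against 587 ± 423 in MG CTL (5.96, SE 0.46, adjusted p = 1.45e-09). The surface receptor gene Treml2 was lower at 0.41 against 9.08 CPM (-4.41, SE 0.99, adjusted p = 0.00187). Trem3 had no count in tdT- CTL and averaged 0.727 CPM in MG CTL, a call that held in 19 of 26 alternatives. In BLZ945 mice it averaged 1.13 CPM in MG and 1.86 CPM in tdT- cells. Sirpb1a had no count in MG BLZ945 and averaged 3.08 CPM in tdT- BLZ945, where libraries ranged from 0 to 10.1 CPM. Clu, a secreted chaperone that binds TREM2, was called in tdT+ against MG at 3.06 (SE 0.88, adjusted p = 0.0242) but not without tdT+ F3 (1.34, adjusted p = 0.355), with the block (0.0958), or without MG BLZ945 F1 (0.059), F2 (0.0555), M1 (0.0607) or M2 (0.0644). Lat2, an adaptor of the same pathway, was the list's call between tdT+ and tdT- CTL, at 68.7 ± 7.05 against 23.7 ± 5.94 CPM (1.53, SE 0.26, adjusted p = 0.0144). That call was lost with pools of 2 only (0.0898) and without tdT- CTL M1 (0.0515), tdT+ F2 (0.107) or tdT+ F3 (0.0611).

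Among 11 genes of GM-CSF and G-CSF receptor signalling, 1 was higher and 2 lower between tdT- and MG cells in CTL and in BLZ945 mice, and 1 higher and 1 lower between tdT+ and MG. At 27.3%, 27.3% and 18.2% of the list these shares are near or below those of all genes, 25.6%, 32.4% and 18.9%, and the counts in CTL mice and in tdT+ against MG each fell to 1 in alternatives. The lower call in tdT+ against MG was Socs1, at -1.61 (SE 0.54, adjusted p = 0.0491), which was lost in 13 of 20 alternatives, among them with the block (0.0697), with pools of 2 only (0.178), and without tdT+ F2 (0.16) or F3 (0.152), tdT- BLZ945 F1 (0.0557) or F3 (0.0613), or MG BLZ945 F1 (0.0617), F2 (0.071), F3 (0.0535), M1 (0.111) or M2 (0.0759). Pim1, a kinase induced by STAT5, rose from 5.66 ± 1.58 to 25.1 ± 9.11 CPM in CTL mice (2.14, SE 0.38, adjusted p = 0.000173), and the STAT3-induced inhibitor Socs3 fell from 484 ± 168 to 201 ± 66.3 CPM (-1.27, SE 0.40, adjusted p = 0.022). The Socs3 call was lost in 5 alternatives, among them without MG CTL M1 (0.057) or M2 (0.0586) and without tdT- CTL F1 (0.0565) or F3 (0.0511), and its adjusted p ranged from 0.000589 to 0.0619. The related Socs1 was at -0.91 (SE 0.31, adjusted p = 0.0348) and lost its call in 8 alternatives, at up to 0.0945 without MG CTL F3. Bhlhe40, a transcription factor downstream of GM-CSF, was the pathway call between treatments in MG, rising from 2.27 ± 1.86 CPM in MG CTL to 15.8 ± 5.69 in MG BLZ945 (2.77, SE 0.47, adjusted p = 0.0132). Its adjusted p ranged from 2.01e-07 to 0.282 over the alternatives. The 7 monocyte markers with counts in MG summed to 10.1 to 32.7 CPM in MG CTL and 39.7 to 94.4 CPM in MG BLZ945, with Fn1 at 11.3 against 56.7 CPM, Ccr2 at 5.94 against 4.01 CPM and Plac8 at 3.98 against 0.963 CPM, and their part in the Bhlhe40 result was not tested. It was lost without MG CTL F2 (0.0506) or MG BLZ945 F3 (0.0527) and in the model of all 23 libraries (0.282). Of the transcription factors that act on the Csf1r gene, Maf was higher in tdT- than in MG cells of CTL mice, at 980 CPM in tdT- CTL (1.84, SE 0.20, adjusted p = 3.53e-07). In BLZ945 mice Cebpa, which drives myeloid fate, was lower in tdT- cells (-1.28, SE 0.15, adjusted p = 8.36e-07), as was Runx1 in tdT+ cells (-1.33, SE 0.30, adjusted p = 0.00576).

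Of 14 further growth factors and receptors, 7 were high enough to test between tdT- and MG cells in CTL mice, and 1 was called (14.3% against 25.6% of all genes). This was Il3ra, the IL-3 receptor alpha chain that pairs with the beta chains above, at 13.8 ± 4.92 against 1.37 ± 0.447 CPM (3.31, SE 0.58, adjusted p = 0.000136). In BLZ945 mice 3 were called higher (42.9% against 32.4%), namely Il3ra, the stem cell factor receptor Kit and its ligand Kitl. Kit, at 4.91 (SE 1.65, adjusted p = 0.0269), was lost with the block (3.92, 0.142), with pools of 2 only (0.0696), without tdT- BLZ945 F1 (2.94, 0.152) and without MG BLZ945 F2 (0.0632), F3 (0.0638) or M1 (0.065). Kitl, at 0.89 (SE 0.30, adjusted p = 0.0288), was lost with pools of 2 only (0.0616), without tdT- BLZ945 F2 (0.081) or F3 (0.0697) and without MG BLZ945 F3 (0.0511), M1 (0.0774) or M2 (0.0705). In tdT+ against MG, 1 of 5 was called, Il3ra at 3.05 (SE 0.74, adjusted p = 0.00881), which the block took to an adjusted p of 0.0586. The ligands themselves were near or at 0: Csf2 reached at most 4 counts in a library and Csf3 at most 2, while Il3 and Il5 had none. Beyond Bhlhe40 and Lat2, 0 list genes were called by edgeR in the comparisons of treatment, origin and interaction. DESeq2 called 1 gene of CSF-1R signalling in MG between treatments and 1 in the interaction. In tdT+ against tdT- BLZ945 it called 1 gene of CSF-1R signalling and 1 of the DAP12 list. The model of all 23 libraries also called 1 of the DAP12 list there.

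**Figure D5:**
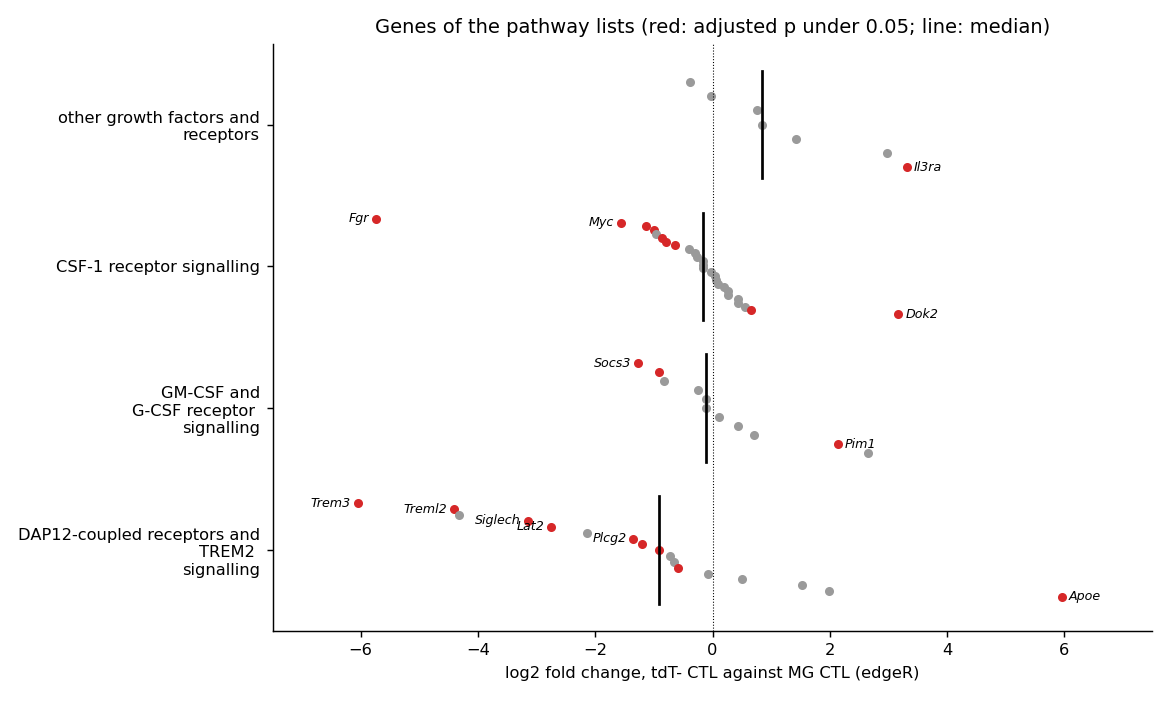
Log2 fold change (edgeR, horizontal axis) of every tested gene of the pathway lists for growth factors, CSF-1R signalling, GM-CSF and G-CSF receptor signalling, and DAP12 and TREM2 signalling, for tdT- CTL against MG CTL. Each point is a gene, red where called, and the line is the list's median, which is -0.91 for DAP12-coupled receptors and TREM2 signalling and -0.16 for CSF-1R signalling.

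Finally, the genes whose levels ran most alike with each member over the 23 libraries were found by Pearson's r of log2(CPM + 1) among 5149 well-measured genes. The libraries share cell type, animal and batch, so these values describe the split between MG and sdCAMs as much as anything within it. Csf3r ran most like Hps4 (r = 0.976), P2ry12 (0.964) and Ecscr (0.962), and Trem2 like Susd3 (0.983), Cst3 (0.978) and Klk8 (0.975). P2ry12 is a defining MG gene and averaged 4609 ± 1004 CPM in MG CTL against 390 ± 39.2 in tdT- CTL. Tyrobp ran most like Atox1 (0.959), C1qb (0.945) and Prorsd1 (0.916), and Csf1r like Sirpa (0.914), Tnfrsf21 (0.912) and Cmtm6 (0.893). Csf1 was nearest to Klhl7 (0.923), the chemokine gene Ccl4 (0.909) and Itga5 (0.904). For Csf2ra the nearest were Fam50a (0.870), Htatip2 (0.856) and Anxa2 (0.855), and for Dap Slc25a3 (0.861), Mbd2 (0.844) and Cox6b1 (0.844). The beta chains ran most like Coq10b (0.828), Arl4c (0.808) and Nfkbib (0.795) for Csf2rb and Mbnl2 (0.928), Slc12a9 (0.865) and Klhl7 (0.865) for Csf2rb2. Il34 was too low for this measure.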

How the data were processed

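RNA of sorted MG and sdCAMs was amplified from full-length cDNA with a kit that does not mark strand (SMART-Seq mRNA LP) and sequenced on an Illumina NextSeq instrument. The submitters' processing notes name bcl2fastq 2.20, STAR 2.7.11a, featureCounts 2.0.6 and DESeq2 1.46.0, and the authors deposited raw counts per gene. The notes name both mm10 and GRCm39, so no gene coordinates are given from the files. All 23 columns were mapped to samples by name. The members and lists were chosen with earlier results of these data known.

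Counts were scaled by TMM factors to CPM and tested with edgeR 4.0.16 in R 4.3.3 (filterByExpr, quasi-likelihood test, Benjamini-Hochberg over all genes tested, called at an adjusted p under 0.05). Models held the 10 MG libraries, the 13 sdCAM libraries, the 20 MG and tdT- libraries, or the 13 BLZ945 libraries. SE is the log2 fold change divided by the root of F, and intervals are 1.96 SE either side. Intervals and floors cover the spread between these libraries or counting error only, and pools of mice count as 1 replicate. Alternatives were other size factors, other filters, DESeq2 1.42.0, a replicate block, pools of 2 mice only, all 23 libraries in a single model, and each library left out. Named were the 10 members, the 3 genes most like each member, and up to 3 called genes with the largest change per pathway list and comparison. A gene that this rule names, and the counts of its list, are not reported here. The method was tested on simulated data.

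The replicate block pairs the sorted populations of an animal or pool, as the library names give it. Same-labelled libraries deviated together with correlations of 0.0733 to 0.183 for tdT- and MG of CTL mice, 0.0286 to 0.168 for tdT- and MG of BLZ945 mice, 0.0979 to 0.162 for tdT+ and MG, and 0.0413 to 0.0857 for tdT+ and tdT- cells of BLZ945 mice. No pair of libraries was alike within sampling noise.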

Additional observations from a re-analysis of the deposited data

Results flagged for a closer look

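In each of the 4 groups of 5 libraries the highest and lowest library of each member was compared with its nearest neighbour on the log2(CPM + 1) scale, as a share of the group's range, and 5 of 40 screens exceeded 0.71, where chance alone passes about 1 in 20. Csf1r in MG CTL had M2 as its lowest library, at 0.767 of the range. Il34 in MG BLZ945 had F2 as its highest, at 1.0, since the other 4 libraries had no count. Csf2rb in MG BLZ945 had F3 as its highest, at 0.899, and Csf2rb in tdT- BLZ945 had M2 as its lowest, at 0.724. Dap in tdT- CTL had F3 as its highest, at 0.758. On the CPM scale itself, the shares past 0.71 also took in Csf1 in MG CTL M2 (0.856) and Tyrobp in tdT- CTL F3 (0.725) and tdT- BLZ945 F2 (0.721), each the highest of its group, and no longer Csf2rb in tdT- BLZ945. Leaving out MG CTL M2 changed the calls of Csf1r and Il34, leaving out tdT- CTL F3 those of Dap and Il34, and leaving out MG BLZ945 F3 those of Csf1 and Il34 in tdT+ against MG.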

How the results depend on the processing

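Over all alternatives, the member counts for treatment, origin and interaction stayed at 0. Counts of members called between tdT- and MG cells were 4 to 7 (6 as reported) in CTL and 7 to 10 (9 as reported) in BLZ945 mice. For tdT+ against MG the count was 5, and it was 3 with at least 10 counts in every library and 3 to 7 leaving out a library. The genes tested were fewer in the former, and the cause of the other changes was not tested. Of 1749 alternative values of the members' log2 fold changes, 1667 kept direction and side of the threshold, and no called difference turned direction. Mean CPM moved by less than 1 SD in 50 of 50.

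With the replicate block, calls were gained for Csf1r (tdT- against MG, CTL) and Tyrobp (tdT- against MG, BLZ945) and lost for Il34 (tdT+ against MG), and the block changed no other member's call. Uncalled values turned direction with the block for tdT+ against tdT- BLZ945, at -0.02 for Csf2rb2 and -0.05 for Tyrobp, and for tdT+ against tdT- CTL, at -1.30 for Csf1 and -0.10 for Dap. Between treatments the animals differ and the block joins labels only. There it moved the genes called in MG from 46 to 89 and gave 0.78 for Csf1 (SE 0.20, adjusted p = 0.0919). Same-labelled libraries of the 2 treatments deviated together at 0.00873 to 0.186 in MG and at -0.0803 to 0.0425 in tdT- cells.

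With pools of 2 only, uncalled values turned direction for tdT- BLZ945 against tdT- CTL (Il34 0.28, Csf2rb -0.06, Trem2 -0.03), tdT+ against tdT- BLZ945 (Il34 -0.53), tdT+ against tdT- CTL (Il34 -0.25, Csf2ra -0.03, Csf2rb2 0.18) and the interaction (Dap -0.10). Leaving out a library, uncalled values that turned ranged, in MG BLZ945 against CTL, from -0.0044 to 0.10 for Csf1r and -0.17 to 0.05 for Tyrobp. In tdT- BLZ945 against CTL they ranged from -0.39 to 0.28 for Il34, -0.06 to 0.21 for Csf2rb, -0.13 to 0.11 for Csf3r and -0.03 to 0.12 for Trem2. For tdT+ against tdT- BLZ945 the ranges were -0.21 to 0.94 for Il34, -0.05 to 0.44 for Csf2rb2, -0.12 to 0.29 for Tyrobp and -0.37 to 0.0019 for Dap. For tdT+ against tdT- CTL they were -0.72 to 0.59 for Csf1, -0.25 to 0.90 for Il34, -0.03 to 0.12 for Csf2ra, -0.32 to 0.18 for Csf2rb2 and -0.02 to 0.31 for Dap. For tdT- against MG in CTL mice Tyrobp ranged from -0.09 to 0.11, and the interaction from -0.08 to 4.00 for Il34, -0.04 to 0.14 for Csf2ra and -0.06 to 0.32 for Dap.

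Counts over all genes that moved by more than 1.5 times were, for MG BLZ945 against CTL, 46 as reported, 193 without a filter, 251 by DESeq2, 94 with pools of 2 and 12 with all 23 libraries. For tdT+ against tdT- BLZ945 they were 27, 179 by DESeq2 and 82 with all 23 libraries. For tdT+ against tdT- CTL they were 37, 61 without a filter, 211 by DESeq2 and 121 with all 23 libraries. For the interaction they were 5, 100 by DESeq2, 9 without a filter, 1 with the block or with all 23 libraries, and 0 with at least 10 counts or pools of 2. For tdT- BLZ945 against CTL they were 0, 63 by DESeq2 and 29 with all 23 libraries. Depth limits Il34 in MG, where libraries held 0 to 7 counts.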
